A study of Homo sapiens with 10 samples.

Results

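Acetylation of histone H3 at lysine 27 (H3K27ac) was described at the genes of the fibroblast growth factor (FGF) receptor axis: the ligand FGF2, the receptors FGFR1, FGFR2, FGFR3 and FGFR4, and the adaptor FRS2. All regions that the annotated count table assigned to one of these 6 symbols were taken, which gave 21 of 67387 annotated regions, drawn from 169637 regions counted in all. FRS2 had 11 regions, FGFR3 had 4, FGF2 and FGFR1 had 3 each, and FGFR2 and FGFR4 had none. Each region was 502 bp wide. H3K27ac marks active promoters and enhancers, and was measured by chromatin immunoprecipitation followed by sequencing (ChIP-seq). The cells were H1975, a lung adenocarcinoma line with a mutant, constitutively active EGFR. Cultures that survived 24 days in 500 nM osimertinib, an EGFR inhibitor, formed the drug tolerant persister group (osi_DTP). A further group (osi_DTP_AZD5153, here the sequential combination) had 21 days in 500 nM osimertinib and then 3 days in 150 nM AZD5153, a bivalent inhibitor of the BET bromodomain proteins that read acetylated histones. The labels do not say whether osimertinib was kept on during those last days. Control cells (DMSO) had 21 days without drug and 3 days in DMSO. Each group held 3 biological replicates of this single line. The main tests fitted all 9 libraries together. Their p-values measure the spread between replicates over all 3 groups, the group not compared included.

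FGF2 is a secreted growth factor that binds FGF receptors together with heparan sulfate. The receptors are tyrosine kinases, and FRS2 is the membrane-anchored docking protein that, once phosphorylated by them, recruits GRB2, SOS1 and PTPN11 and so leads to the RAS and ERK cascade. That cascade is shared with EGFR. FGF receptor signalling is known in lung cancer as a route by which cells can keep the cascade active when EGFR is inhibited, and it switches on its own inhibitors, such as the Sprouty proteins and DUSP6.

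The H3K27ac libraries held 6263443 to 10463351 counts in these regions. Replicate 3 of the sequential combination stood apart. It had the lowest total, 9139 regions without a count, and Spearman correlations over regions of 0.430 and 0.354 with the other replicates of its group, where all other replicate pairs lay between 0.818 and 0.898. It also had the highest share of its annotated counts within 1 kb of a transcription start site (TSS), 66.7%, followed by replicate 2 of osi_DTP at 59.8%, while the other libraries had 40.3% to 45.9%. Results that rest on it are therefore given with and without it. All 8 epithelial marker genes had regions, with summed levels of 1040 to 1640 CPM (counts scaled by the size of each library) over all libraries, and of the 4 immune markers CD14 alone had a region. Of 4 fibroblast markers, COL1A1, COL1A2 and PDGFRB had regions and DCN had none. Their summed level was 34.9 to 102 CPM in DMSO, 147 to 217 CPM in osi_DTP and 194 to 393 CPM in the sequential combination. All 3 endothelial markers had regions, at 226 to 263, 180 to 199 and 103 to 200 CPM in the same order. The part of these markers in the results was not tested. In bulk chromatin, fewer cells with an acetylated region and less acetylation per cell cannot be told apart.

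Start site windows of FRS2, FGFR4, FGFR3 and FGF2 are shown as examples from opposite ends of the promoter data. The FRS2 window overlapped a region called as a peak in all 9 libraries, by 140 bases. The windows of FGFR4 and FGFR3 overlapped weak regions that the annotated table left out, by 167 and 35 bases, and no counted region overlapped the window of FGF2. The windows of FGFR2 and another window of FGFR4, at chr5:177089300-177089599, also overlapped no counted region and are not shown. Each window runs from 250 bases before to 50 bases after a RefSeq start site in GRCh38.p14, on the plus strand, at chr12:69470138-69470437 for FRS2, chr5:177086665-177086964 for FGFR4, chr4:1793043-1793342 for FGFR3 and chr4:122826581-122826880 for FGF2. Capitals mark the ETS motif CCGGAAG and the SP1 motif GGGCGG on either strand, overlapping matches included.
FRS2: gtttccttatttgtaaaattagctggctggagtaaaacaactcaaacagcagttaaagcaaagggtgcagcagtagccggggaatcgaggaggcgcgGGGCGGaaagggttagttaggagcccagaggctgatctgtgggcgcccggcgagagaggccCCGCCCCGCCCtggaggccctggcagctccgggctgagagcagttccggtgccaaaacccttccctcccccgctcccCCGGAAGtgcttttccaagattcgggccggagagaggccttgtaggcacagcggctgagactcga
FGFR4: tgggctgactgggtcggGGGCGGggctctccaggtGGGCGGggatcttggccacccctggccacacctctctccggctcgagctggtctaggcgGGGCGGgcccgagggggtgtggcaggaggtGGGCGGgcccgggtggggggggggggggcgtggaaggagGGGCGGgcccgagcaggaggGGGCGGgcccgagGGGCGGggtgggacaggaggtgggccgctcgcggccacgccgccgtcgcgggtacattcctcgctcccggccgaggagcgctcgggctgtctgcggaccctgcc
FGFR3: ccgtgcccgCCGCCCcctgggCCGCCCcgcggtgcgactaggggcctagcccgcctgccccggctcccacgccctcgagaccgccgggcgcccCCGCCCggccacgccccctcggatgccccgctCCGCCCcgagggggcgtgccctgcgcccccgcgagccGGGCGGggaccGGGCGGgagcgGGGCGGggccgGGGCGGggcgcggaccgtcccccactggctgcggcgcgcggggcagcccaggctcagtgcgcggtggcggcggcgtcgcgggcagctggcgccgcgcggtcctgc
FGF2: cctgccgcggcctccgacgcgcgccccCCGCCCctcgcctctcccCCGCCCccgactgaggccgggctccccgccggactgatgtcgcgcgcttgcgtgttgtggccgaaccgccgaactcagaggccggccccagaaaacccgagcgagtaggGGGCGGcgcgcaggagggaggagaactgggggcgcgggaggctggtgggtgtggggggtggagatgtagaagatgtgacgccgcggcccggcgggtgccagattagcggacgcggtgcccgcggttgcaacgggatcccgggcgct
The FRS2 window held 1 ETS match and 3 SP1 matches, with 18 CpG and 61% G and C. The FGFR4, FGFR3 and FGF2 windows held 7, 8 and 3 SP1 matches and no ETS match. Of 35116 RefSeq start site windows of this length, 10.3% held the ETS motif and 45% the SP1 motif. The AP-1 motif TGANTCA, found in 7.71% of those windows, was absent from all of these windows, and the TEAD motif GGAATG, found in 14%, had 1 match, in FGFR4. A match describes the letters of the window and not a bound site.

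Of the 21 regions, all passed the filter on low counts. In osi_DTP against DMSO, 3 fell and none rose past an adjusted p of 0.05 in edgeR's quasi-likelihood test, where 5.13% of the 157919 regions tested fell and 5.58% rose. Among the 67387 annotated regions, from which the members come, 7.22% fell and 6.98% rose. Against DMSO the sequential combination had 4 regions that fell and none that rose, where 9.01% and 9.05% of all regions did, and 11.1% and 10.7% of annotated regions. The regions that fell lay inside FGFR1 and towards the 3′ end of FRS2. Between the sequential combination and osi_DTP none was called in either direction, beside 0% higher and 0% lower of all regions, and no member region had an unadjusted p under 0.05, where 7013 regions in all did. DESeq2 and limma's voom with library weights, which called 86 and 5006 regions in that comparison, called no member region either. The median log2 fold change of the 21 regions was 0.61 in osi_DTP against DMSO and 0.87 in the sequential combination against DMSO, beside 0.15 and 0.23 over all regions. Both comparisons share the DMSO libraries.

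Without replicate 3 of the sequential combination the calls changed. That library is in neither group of osi_DTP against DMSO, but it enters the test through the shared estimate of the spread. In osi_DTP against DMSO, 7 member regions then rose and 4 fell, where 14.2% and 12.7% of all regions did, and 15.7% and 15.8% of annotated regions. For the sequential combination against DMSO, 7 rose and 4 fell, where 18.4% and 17.3% of all regions did, and 18.9% and 17.4% of annotated regions. Against osi_DTP, still none was called, beside 0.0637% higher and 0.0587% lower of all regions. The regions that rose in osi_DTP were the 4 intronic regions and the promoter of FRS2 and 1 region each upstream of FGF2 and FGFR3, and those that rose in the sequential combination were the same 4 intronic regions and all 3 upstream regions of FGF2. With only the DMSO and osi_DTP libraries and a term for the replicate number, which pairs these libraries, 9 member regions rose and 4 fell, beside 26073 and 24823 of all 146480 regions tested. That fit was chosen after the data were seen. The same replicate block in the fit of all 9 libraries gave 3 falls and no rise, beside 8008 and 8433 of all 157919 regions tested. The loss of other libraries took calls away in osi_DTP against DMSO, among members and among all regions. No member region was called without DMSO replicate 2 or osi_DTP replicate 3, where 1150 of 164143 and 4481 of 162949 regions in all were. Only 1 was called without DMSO replicate 3, osi_DTP replicate 1 or osi_DTP replicate 2, where 3160 of 163040, 8464 of 162921 and 4925 of 164346 regions were. By contrast, 5 were called without replicate 2 of the sequential combination, where 21918 of 163327 regions were.

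**Figure D1:**
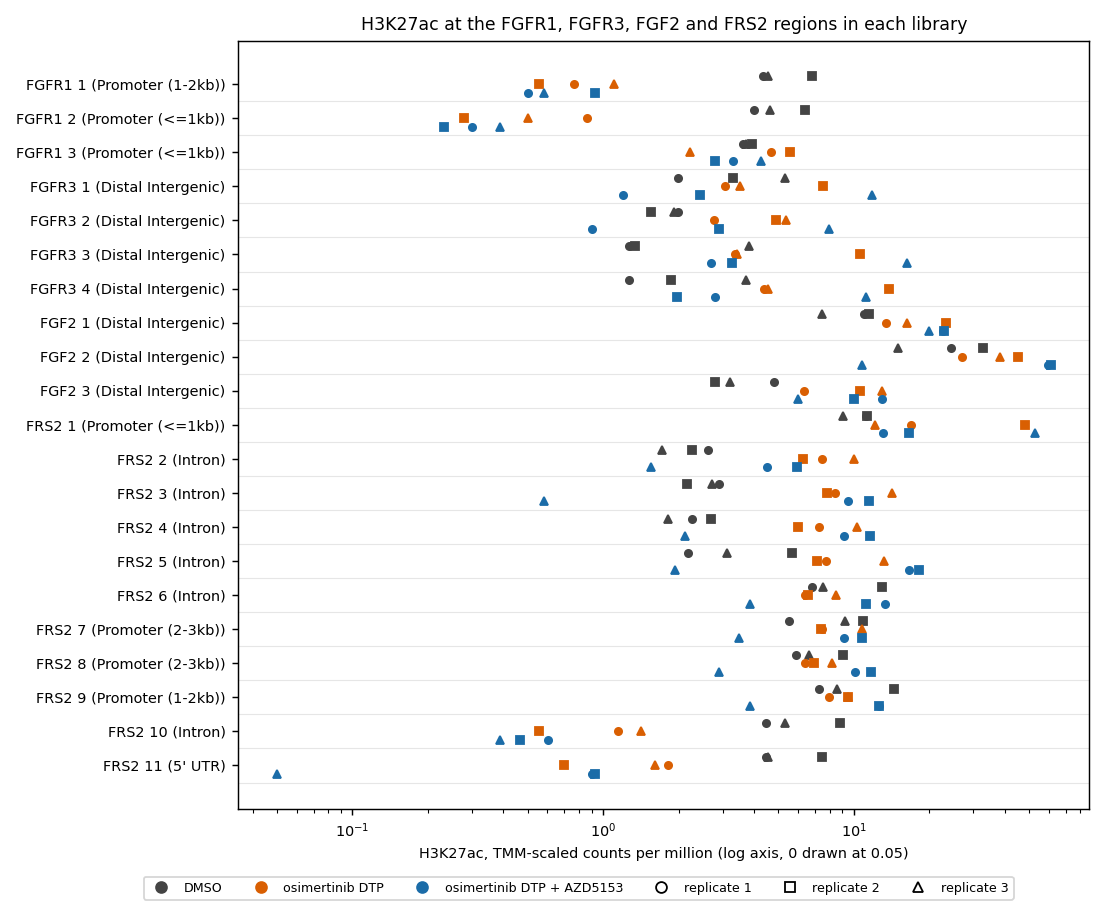
H3K27ac at the 21 regions in each library, as TMM-scaled CPM on a log axis, with colour for the group and symbol for the replicate. Regions are numbered along the chromosome within each gene; FGFR1 1 and 2 and FRS2 10 and 11 have all treated libraries below all DMSO libraries, and replicate 3 of the sequential combination sits apart in most FRS2 and FGFR3 regions.

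FGF2, the ligand, had 3 neighbouring intergenic regions upstream of the gene, 1 of them the most acetylated of all 21. They were called as peaks in all 9 libraries. The highest, chr4:122783771-122784272 (hg38), at -42436 bp from the TSS, had counts of 269, 316 and 149 in DMSO replicates 1, 2 and 3, 283, 323 and 380 in osi_DTP, and 593, 524 and 56 in the sequential combination. The groups overlapped, and the highest and the lowest count were both in the sequential combination. Its scaled level was 24 ± 8.83 CPM (SD, n = 3) in DMSO, 36.8 ± 9.04 in osi_DTP and 43.7 ± 28.5 in the sequential combination, which was no called change (log2 fold changes 0.61 ± 0.59 (SE) and 0.87 ± 0.60 against DMSO, adjusted p = 0.576 and 0.342). Without replicate 3 of the sequential combination, the latter became 1.32 ± 0.44 with an adjusted p of 0.0234.

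The region nearest to FGF2, chr4:122784691-122785192, had counts of 53, 27 and 32 in DMSO, 66, 76 and 129 in osi_DTP, and 129, 86 and 31 in the sequential combination. Every osi_DTP library exceeded every DMSO library. Its log2 fold change was 1.46 ± 0.56 in osi_DTP against DMSO (adjusted p = 0.0983) and 1.42 ± 0.56 in the sequential combination (adjusted p = 0.0836). It rose in both without replicate 3 of the sequential combination, by 1.45 and 1.66 (adjusted p = 0.0146 and 0.0084). The farthest, chr4:122782972-122783473, had 121, 111 and 74 counts in DMSO, 140, 168 and 162 in osi_DTP, and 226, 196 and 103 in the sequential combination. It was not called either (0.83 ± 0.51, adjusted p = 0.33, and 1.13 ± 0.51, adjusted p = 0.133).

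Summed over the 3 regions, FGF2 rose in both treated groups. The sums were 443, 454 and 255 in DMSO, 489, 567 and 671 in osi_DTP, and 948, 806 and 190 in the sequential combination. The log2 fold change was 0.89 ± 0.29 in osi_DTP (adjusted p = 0.0338) and 1.08 ± 0.29 in the sequential combination (adjusted p = 0.0115), in a fit of such sums over 8143 genes of which 18.6% and 23.7% rose. These distal sums stand for nearby regions that share peaks, so they repeat the values above. The first was not called when libraries were scaled by their totals alone, and it was lost without DMSO replicates 2 or 3 or osi_DTP replicates 2 or 3, the second without DMSO replicates 2 or 3, with adjusted p up to 0.169 and 0.0666 (without DMSO replicate 3). The summed fibroblast markers were higher in the same groups, and their part in this rise was not tested.

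Within the FGF2 gene, 12 counted regions lay in or within 1 kb of the RefSeq span, and none was assigned to FGF2. The annotated table gave 5 of them to NUDT6, a gene transcribed antisense to FGF2 and overlapping part of it, and left out the other 7. The 5 lay 14120 to 39626 bp from the TSS of NUDT6. Where the genes overlap, reads cannot be told apart by gene. Region chr4:122832534-122833035, in the first part of FGF2, had 8, 5 and 6 counts in DMSO, 17, 13 and 35 in osi_DTP, and 95, 52 and 10 in the sequential combination. It rose in the sequential combination against DMSO by 3.23 ± 0.69 on the log2 scale (adjusted p = 0.00556), and was 1.89 ± 0.69 in osi_DTP (adjusted p = 0.0842). The pair at chr4:122878599-122879100 and chr4:122879182-122879683 rose likewise in the sequential combination (2.66 ± 0.69 and 3.04 ± 0.73, adjusted p = 0.0141 and 0.0098), with 5 to 16 counts in each DMSO library and 5 to 117 in the sequential combination. With replicate 3 of the sequential combination left out, all 3 passed the test in osi_DTP as well (adjusted p = 0.0112, 0.0169 and 0.00343), and chr4:122873849-122874350 and chr4:122875962-122876463 rose in the sequential combination (adjusted p = 0.0326 and 0.0235). These regions were chosen after their values were seen. Of all 39 tested regions of the 6 genes that were not assigned to them, 4 rose in the sequential combination and 0 in osi_DTP. Over all regions, 9.05% and 5.58% rose. Without replicate 3 of the sequential combination, 6 and 10 of 42 rose, where 18.4% and 14.2% of all regions did.

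FGFR1, a receptor for FGF2, fell at an internal promoter pair, while a region nearer its upstream start was not called. Its 3 assigned regions are all of the promoter class. The internal pair lay at chr8:38455676-38456177 and chr8:38456336-38456837, 1269 and 609 bp downstream of an annotated TSS inside the gene, which runs on the minus strand from position 38468635 to 38411143. The first had counts of 48, 66 and 45 in DMSO, 8, 4 and 11 in osi_DTP, and 5, 8 and 3 in the sequential combination. The second had 44, 62 and 46, then 9, 2 and 5, then 3, 2 and 2. All treated libraries lay far below all DMSO libraries at both regions.

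In osi_DTP against DMSO the first of the pair fell by 2.66 ± 0.62 on the log2 scale, 6.3-fold (adjusted p = 0.0133), and the second fell by 3.13 ± 0.66, 8.73-fold (adjusted p = 0.00854). Their log2 fold changes in the sequential combination were -2.93 ± 0.64 and -4.00 ± 0.73 (adjusted p = 0.00594 and 0.00233). The last 2 calls were kept when any of the 9 libraries was left out. In osi_DTP the first call was lost without DMSO replicate 2 (adjusted p = 0.106), DMSO replicate 3 (0.0587), osi_DTP replicate 1 (0.0647), osi_DTP replicate 2 (0.0664) or osi_DTP replicate 3 (0.0552), and the second without DMSO replicate 2 (0.0806) or osi_DTP replicate 3 (0.0563). Peaks over both regions were called in 3 of 3 DMSO libraries, at fold enrichments of 3.58 to 7.04, and in none of the 6 treated libraries. Between the sequential combination and osi_DTP the pair differed by -0.28 ± 0.66 and -0.88 ± 0.76, neither called.

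The upstream region of FGFR1, chr8:38465412-38465913, 750 bp from another TSS, had 40, 38 and 37 counts in DMSO, 49, 40 and 22 in osi_DTP, and 33, 24 and 22 in the sequential combination. The groups overlapped. Its log2 fold changes of 0.14 ± 0.54 and -0.13 ± 0.55 against DMSO were not called (adjusted p = 0.914 and 0.901). The internal pair held 230% to 337% of this region's count in the DMSO libraries, 15% to 72.7% in osi_DTP and 22.7% to 41.7% in the sequential combination. This ratio within a library does not depend on its depth or scaling, but its regions were chosen by their calls and it was not tested. The promoter sum of the gene fell by 1.50 ± 0.34 in osi_DTP (adjusted p = 0.0294) and fell by 1.98 ± 0.35 in the sequential combination (adjusted p = 0.00709), where 4.13% and 8.08% of 12896 genes fell. The first of these was not called with the replicate block (adjusted p = 0.0561), nor without any 1 of DMSO replicates 1, 2 or 3 or osi_DTP replicates 2 or 3 (up to 0.126).

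Another 9 counted regions of FGFR1 were left out of the annotated table. The 4 around the upstream start, between chr8:38466046 and chr8:38468659, were not called in either comparison with DMSO, with log2 fold changes of 0.27 to 0.90 in osi_DTP and -0.14 to 0.89 in the sequential combination. Region chr8:38457131-38457632, next to the internal pair, had 34, 16 and 20 counts in DMSO, 5 in each osi_DTP library, and 7, 2 and 2 in the sequential combination (-1.997 ± 0.78, adjusted p = 0.106, and -2.29 ± 0.80, adjusted p = 0.0544), and it passed the test in both without replicate 3 of that group (adjusted p = 0.0213 and 0.0241). The 4 regions further into the gene had negative log2 fold changes of -0.73 to -1.65 and -0.77 to -1.41, none called. When replicate 3 of the sequential combination was left out, chr8:38445788-38446289 fell in osi_DTP (-1.65 ± 0.50, adjusted p = 0.0169) and chr8:38442681-38443182 fell in the sequential combination (-2.33 ± 0.80, adjusted p = 0.0265).

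**Figure D2:**
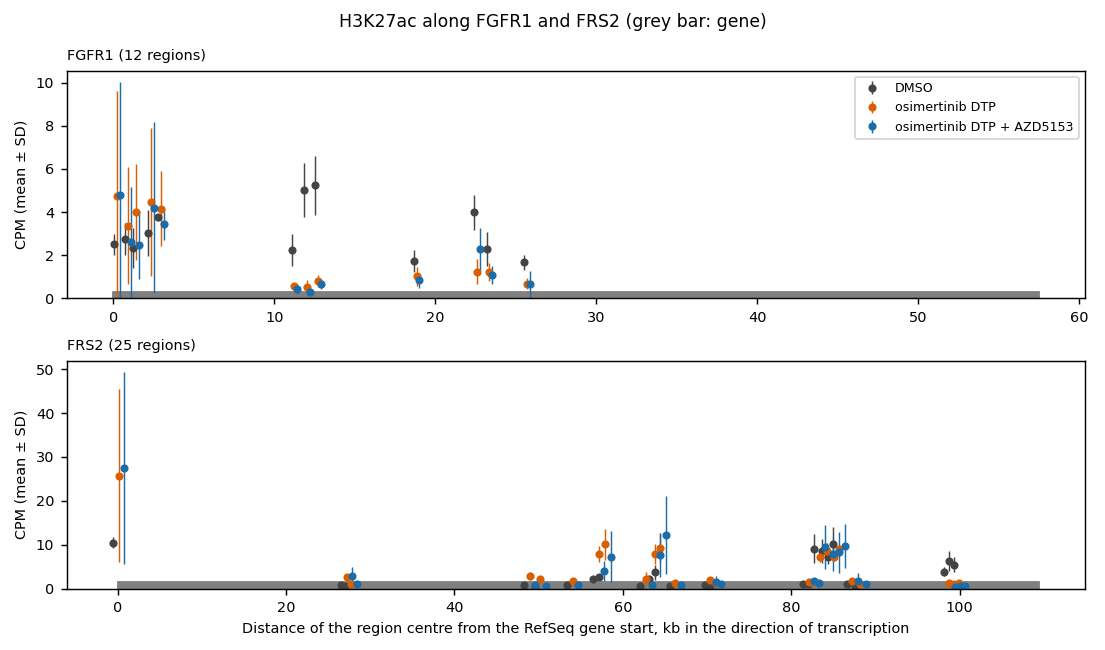
Mean H3K27ac of each group (TMM-scaled CPM, bars show SD, n = 3) at every counted region of FGFR1 and FRS2, by distance from the RefSeq gene start in the direction of transcription. DMSO stands above both treated groups at the internal pair of FGFR1 (5.23 and 5.01 CPM) and at the 3′ pair of FRS2 (6.18 and 5.47 CPM), and osi_DTP stands above DMSO at the 4 intronic FRS2 regions (7.84 to 10.1 CPM).

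FGFR3, a receptor of the same family known for activating mutations in bladder cancer, had no promoter region in the annotated table. Its 4 assigned regions lay together at -17088 to -14478 bp from the TSS, as distal intergenic regions. The region closest to the gene, chr4:1778314-1778815, had 14, 18 and 37 counts in DMSO, 46, 99 and 45 in osi_DTP, and 28, 17 and 58 in the sequential combination. Every osi_DTP library exceeded every DMSO library, while the sequential combination overlapped both. The log2 fold change was 1.72 ± 0.73 in osi_DTP (adjusted p = 0.139) and 1.19 ± 0.73 in the sequential combination (adjusted p = 0.278), neither called. Without replicate 3 of the sequential combination it rose in osi_DTP (1.71 ± 0.52, adjusted p = 0.0169) and was 0.07 ± 0.60 in the sequential combination (adjusted p = 0.939).

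The other 3 FGFR3 regions had log2 fold changes of 0.40 to 1.42 in osi_DTP and 0.50 to 1.76 in the sequential combination, none called. Region chr4:1777503-1778004 shows how far 1 library set these values: its counts in the sequential combination were 27, 28 and 84, and in DMSO 14, 13 and 38. Its log2 fold change in the sequential combination against DMSO was 1.76 ± 0.76 with that library and 0.47 ± 0.60 without it. The distal sum of FGFR3 changed sign in the same way, from 1.78 ± 0.88 (adjusted p = 0.124) to -0.37 ± 0.49 (adjusted p = 0.552). Peaks over the 4 regions were called in all 3 osi_DTP libraries. At 3 of the 4, the highest counts came from osi_DTP replicate 2 and replicate 3 of the sequential combination, the libraries with the largest share of counts near start sites, and the part of that in these values was not tested.

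At the start of FGFR3, region chr4:1794065-1794566, outside the annotated table, had 6, 3 and 7 counts in DMSO, 19, 39 and 35 in osi_DTP, and 11, 15 and 66 in the sequential combination. All treated libraries exceeded all DMSO libraries. The log2 fold change was 2.74 ± 0.87 in osi_DTP (adjusted p = 0.0509) and 3.25 ± 0.88 in the sequential combination, which passed the test (adjusted p = 0.0179). Without replicate 3 of the sequential combination it passed in osi_DTP (2.74 ± 0.60, adjusted p = 0.00171) and not in the sequential combination (1.42 ± 0.68, adjusted p = 0.106). The other 8 regions in or beside the gene were too low to be tested. Each of them had a peak in replicate 3 of the sequential combination, and 1 also in replicate 2 of osi_DTP.

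FGFR2 and FGFR4 had no annotated region and few counts. FGFR2, a receptor of epithelial cells, had 6 counted regions inside the gene, with 0 to 10 counts in each DMSO library, 5 to 31 in osi_DTP and 0 to 18 in the sequential combination. The first, chr10:121495474-121495975, had 3, 0 and 4 counts in DMSO, 5, 28 and 23 in osi_DTP, and 0, 12 and 0 in the sequential combination. A count of 0 allows up to 3 counts. Its log2 fold change in osi_DTP against DMSO was 3.21 ± 1.27 (adjusted p = 0.115). Without replicate 3 of the sequential combination, this region and those at chr10:121496033-121496534 and chr10:121553893-121554394 rose in osi_DTP (adjusted p = 0.0172, 0.0454 and 0.0261). No DMSO library had a peak at any of the 6, while osi_DTP replicates 2 and 3 had peaks at 5 regions each. FGFR4, the receptor through which FGF19 acts on liver cells, had a region over its start, chr5:177086798-177087299, with 24, 24 and 22 counts in DMSO, 10, 28 and 7 in osi_DTP, and 10, 9 and 13 in the sequential combination. The groups overlapped after scaling, and neither difference was called (-0.33 ± 0.71, adjusted p = 0.83, and -0.63 ± 0.72, adjusted p = 0.598). The highest of these start region counts, 28, came with the only peak called there, in osi_DTP replicate 2.

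**Figure D3:**
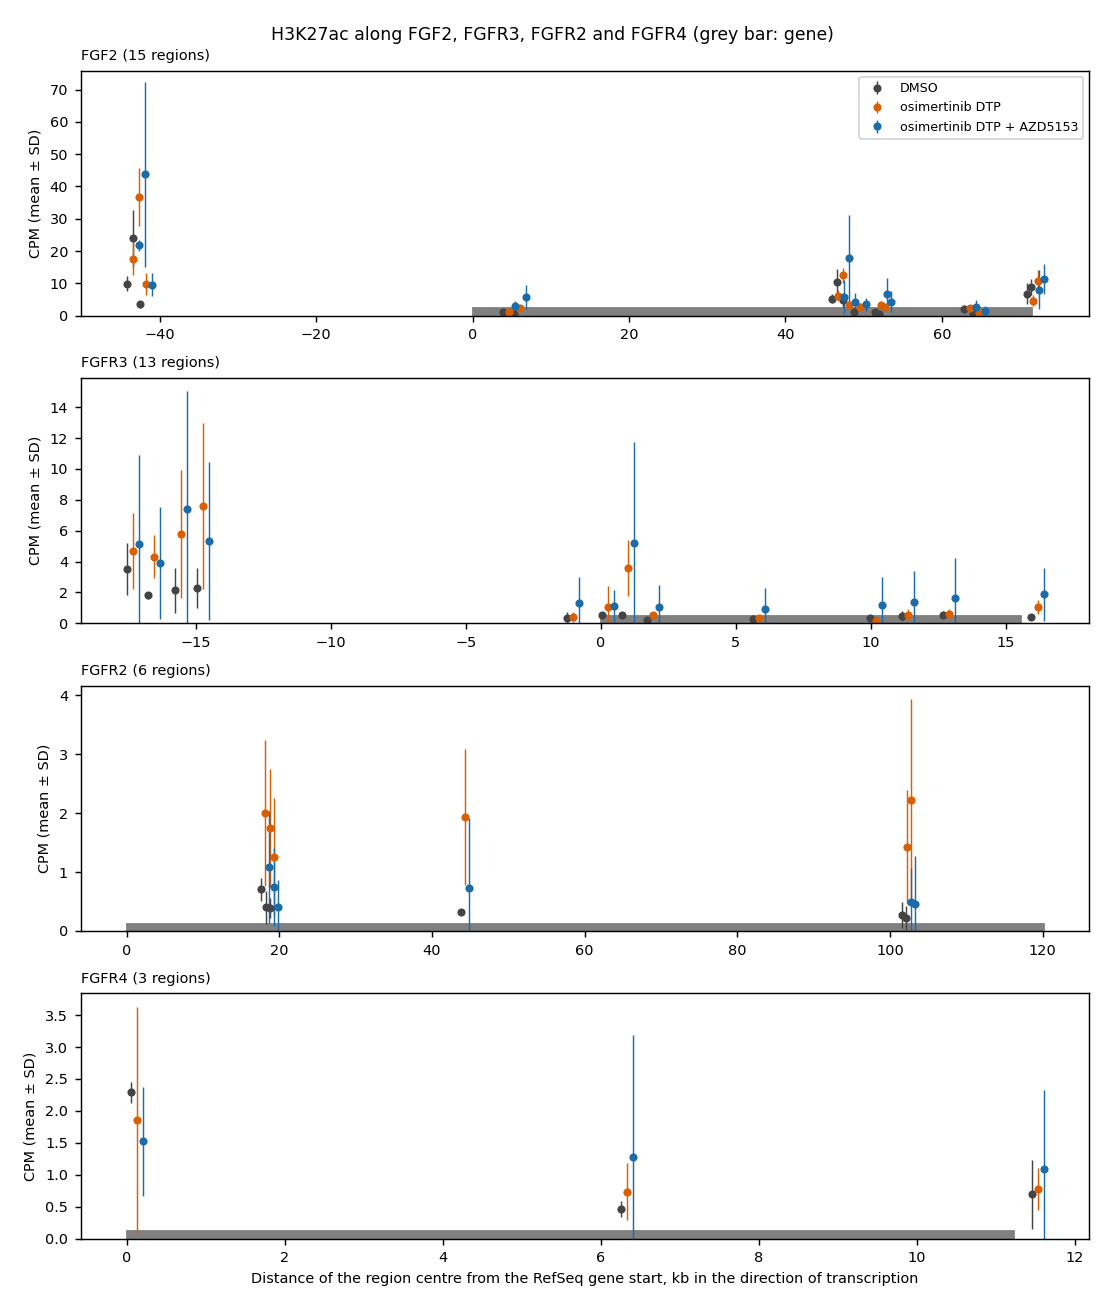
Mean H3K27ac of each group (TMM-scaled CPM, bars show SD, n = 3) at every counted region assigned to or lying in FGF2, FGFR3, FGFR2 and FGFR4, by distance from the RefSeq gene start. The upstream FGF2 regions reach 43.7 CPM, no region of FGFR2 or FGFR4 averages more than 2.29 CPM, and the sequential combination has wide bars at FGFR3.

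FRS2, the adaptor, had an acetylated promoter and 3 blocks of regions within the gene. At its promoter, chr12:69470298-69470799, which overlaps the window printed above, counts were 123, 109 and 90 in DMSO, 176, 347 and 120 in osi_DTP, and 130, 143 and 273 in the sequential combination. All treated libraries exceeded all DMSO libraries after scaling. The highest were osi_DTP replicate 2 and replicate 3 of the sequential combination, where counts near start sites took the largest share, and the part of that was not tested. The level was 10.5 ± 1.24 CPM in DMSO, 25.7 ± 19.7 in osi_DTP and 27.5 ± 22 in the sequential combination, and the log2 fold changes of 1.29 ± 0.64 and 1.38 ± 0.65 were not called (adjusted p = 0.217 and 0.149). With replicate 3 of the sequential combination left out, the promoter rose in osi_DTP (1.29 ± 0.47, adjusted p = 0.0461) and was 0.49 ± 0.52 in the sequential combination (adjusted p = 0.478).

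Inside the gene, 4 intronic regions from chr12:69527265 to chr12:69535083 formed a block with few counts in DMSO. Region chr12:69527265-69527766 had 29, 22 and 17 counts in DMSO, 78, 45 and 99 in osi_DTP, and 45, 51 and 8 in the sequential combination. Every osi_DTP library exceeded every DMSO library, and the lowest count of all was in replicate 3 of the sequential combination. Its log2 fold change was 1.84 ± 0.59 in osi_DTP (adjusted p = 0.0518) and 0.87 ± 0.58 in the sequential combination (adjusted p = 0.327). The other 3 had log2 fold changes of 1.35 to 1.96 in osi_DTP (adjusted p = 0.0708 to 0.231) and 1.48 to 1.77 in the sequential combination (0.0563 to 0.166). Replicate 3 of the sequential combination had 3 to 11 counts at these 4 regions. When it was left out, all 4 rose in osi_DTP, by 1.35 to 1.96 (adjusted p = 0.00168 to 0.0274), and in the sequential combination, by 1.23 to 2.24 (0.000936 to 0.0448). Peaks were called in all osi_DTP libraries and in 2 of 3 libraries of the sequential combination, and in at most 1 DMSO library at each.

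The next block, 4 regions from chr12:69553507 to chr12:69556321, upstream of an internal TSS of FRS2, had log2 fold changes of -0.35 to 0.00 in osi_DTP and -0.12 to 0.21 in the sequential combination, none called with or without replicate 3 of the sequential combination. Its first region had 75, 125 and 75 counts in DMSO, 67, 47 and 84 in osi_DTP, and 133, 96 and 20 in the sequential combination, and the groups overlapped.

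Towards the 3′ end of FRS2 a pair of regions fell. Region chr12:69569527-69570028, annotated as intronic, had 49, 85 and 53 counts in DMSO, 12, 4 and 14 in osi_DTP, and 6, 4 and 2 in the sequential combination. Region chr12:69570091-69570592 had 49, 72 and 45, then 19, 5 and 16, then 9, 8 and 0. All treated libraries lay below all DMSO libraries. The first fell by 2.54 ± 0.61 in osi_DTP (adjusted p = 0.0153) and fell by 3.61 ± 0.67, 12.2-fold, in the sequential combination (adjusted p = 0.0026). The second was -1.96 ± 0.70 in osi_DTP (adjusted p = 0.0807; 0.00503 without replicate 3 of the sequential combination) and fell by 3.03 ± 0.76 in the sequential combination (adjusted p = 0.012). Peaks over both were called in 3 of 3 DMSO libraries and in no treated library.

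The call on the first FRS2 region in osi_DTP was lost without DMSO replicate 2 (adjusted p = 0.126), DMSO replicate 3 (0.0628), osi_DTP replicate 1 (0.062), osi_DTP replicate 2 (0.075) or osi_DTP replicate 3 (0.0594). That on the second in the sequential combination was lost without DMSO replicate 2 (0.0691). A further region directly before the pair, chr12:69568921-69569422, which no symbol was assigned to, had 41, 47 and 28 counts in DMSO, 17, 3 and 14 in osi_DTP, and 5, 6 and 1 in the sequential combination. In the sequential combination it also fell by 2.93 ± 0.73 (adjusted p = 0.0116), and it was -1.68 ± 0.67 in osi_DTP (adjusted p = 0.112; 0.0236 without replicate 3 of the sequential combination).

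Set against the 4 intronic regions of the same gene and library, the 3′ pair held 89.1% to 127% of their count in DMSO, 4.62% to 9.6% in osi_DTP and 2.96% to 6.25% in the sequential combination. Replicate 3 of the sequential combination, with 2 counts against 32, lay in the same range as the others. This share needs no scaling between libraries, but it moves with both of its parts. The pair held 98, 157 and 98 counts in DMSO, 31, 9 and 30 in osi_DTP, and 15, 12 and 2 in the sequential combination. The 4 intronic regions held 110, 124 and 93, then 323, 195 and 473, then 396, 406 and 32. The pair was chosen by its calls and the share was not tested. The distal sum of FRS2 was 0.67 ± 0.39 in osi_DTP (adjusted p = 0.208) and 0.40 ± 0.39 in the sequential combination (adjusted p = 0.431), and its promoter sum was 0.24 ± 0.21 and 0.23 ± 0.21 (adjusted p = 0.574 and 0.517).

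Another 13 weak regions of FRS2 outside the annotated table had 3 to 17 counts in each DMSO library. Of these, 11 were tested and none was called. Without replicate 3 of the sequential combination, chr12:69497350-69497851 rose in osi_DTP (1.72 ± 0.53, adjusted p = 0.0179) and in the sequential combination (2.29 ± 0.56, adjusted p = 0.00321), and chr12:69519070-69519571 rose in osi_DTP (1.84 ± 0.62, adjusted p = 0.0294). Region chr12:69520324-69520825, upstream of the 4 intronic regions, had 3, 7 and 3 counts in DMSO, 18, 16 and 25 in osi_DTP, and 6, 9 and 1 in the sequential combination. It had a peak in each osi_DTP library and in no other, and a log2 fold change of 2.29 ± 0.83 in osi_DTP (adjusted p = 0.0828; 0.0111 without replicate 3 of the sequential combination). It is named here after its values were seen.

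**Figure D4:**
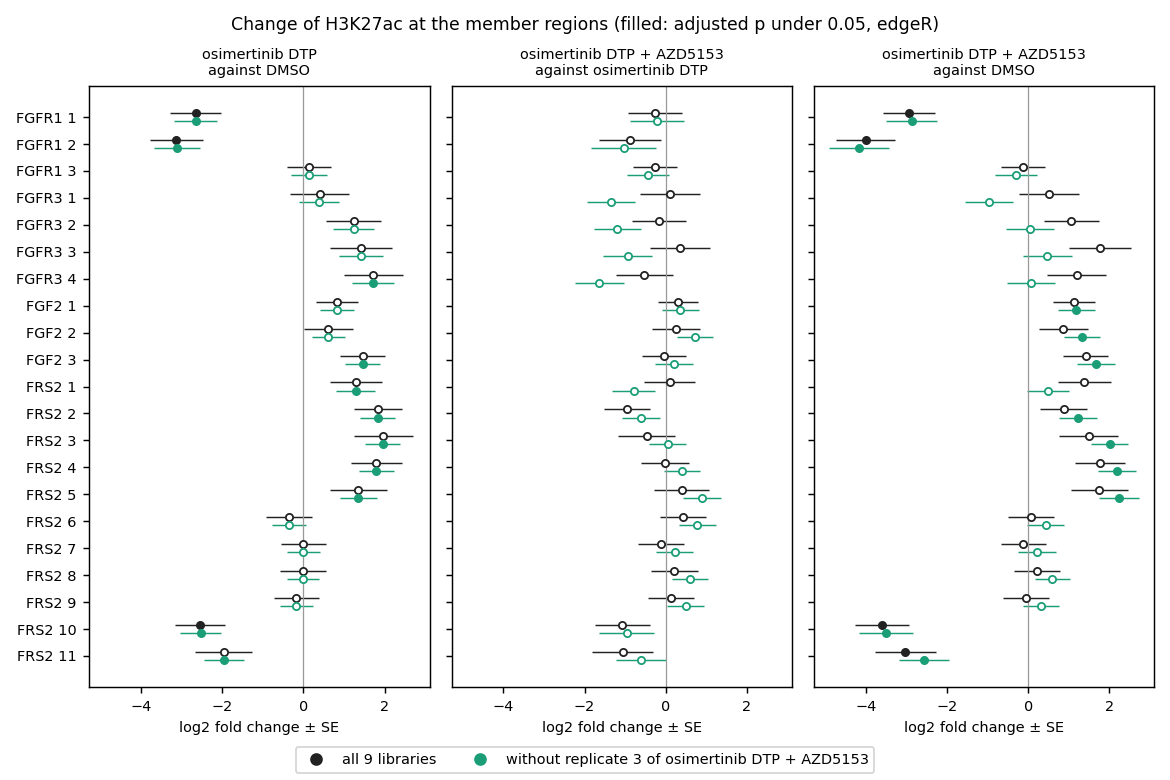
Log2 fold change (bars show SE) of the 21 regions in the 3 comparisons, from all 9 libraries and without replicate 3 of the sequential combination, with filled points where the adjusted p was under 0.05. The falls at the internal pair of FGFR1 and at FRS2 10 are filled in both fits, that at FRS2 11 is filled in both against DMSO for the sequential combination and in the second alone for osi_DTP, the rises at FGF2, FGFR3 and the FRS2 introns and promoter are filled in the second alone, and no point is filled between the sequential combination and osi_DTP.

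Peaks were called by the authors in each library separately. Of the 21 regions, 14, 15 and 16 overlapped a peak in the DMSO libraries, 17, 17 and 16 in osi_DTP, and 14, 14 and 12 in the sequential combination. These counts were not set beside the share of all regions with a peak in each library. Whether they follow the number of peaks called in a library was not tested. Neighbouring regions can also share a peak. The FGF2 regions had equal fold enrichments within every DMSO and osi_DTP library. The FRS2 promoter had a peak in every library, with fold enrichments over input of 9.23 to 71.

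Beyond the 6 genes, 49 genes of the FGF pathway were listed by role, of which 36 had 194 annotated regions, all tested. In osi_DTP against DMSO, 8 of these regions rose and 30 fell, where 6.98% and 7.22% of all annotated regions did, with a median log2 fold change of -0.31 beside 0.18. The sequential combination against DMSO had 13 that rose and 41 that fell, where 10.7% and 11.1% of all annotated regions did, with a median of -0.32 beside 0.24. With replicate 3 of the sequential combination left out, 24 rose and 58 fell in osi_DTP, beside 15.7% and 15.8%, and 20 rose and 60 fell in the sequential combination, beside 18.9% and 17.4%. Between the sequential combination and osi_DTP none was called, with a median of 0.01. In osi_DTP against DMSO, 18 of the 30 falls were among the 58 regions of feedback inhibitors and targets of the ERK cascade (median -1.28), at DUSP6, ETV1, ETV4, ETV5, SPRED2, SPRY1 and SPRY4, where 1 region, at ETV4, rose. The same 7 genes held the 17 falls of that role in the sequential combination (median -0.91). In osi_DTP none of the list was called without DMSO replicate 2, where 489 of all 67387 annotated regions rose and 388 fell. With DMSO replicate 3 left out, 1 region of the list rose and 3 fell, beside 937 and 1355 of all annotated regions. The fit without osi_DTP replicate 1 had 5 that rose and 6 that fell, beside 3281 and 1912. The fit without osi_DTP replicate 2 had 1 that rose and 4 that fell, beside 2096 and 1203. Without osi_DTP replicate 3, 5 rose and none fell, beside 2110 and 1047 of all annotated regions. None of the 30 falls, those of the feedback genes included, was then called. For the sequential combination 2 rose and 9 fell without DMSO replicate 2, beside 2366 and 3020 of all annotated regions. There, 4 rose and 18 fell without DMSO replicate 3, beside 2459 and 3912.

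The strongest fall in osi_DTP by p was near FGFBP1, a secreted carrier that releases FGFs from the matrix. The region chr4:15914644-15915145 had 162, 200 and 113 counts in DMSO, 18, 17 and 17 in osi_DTP, and 12, 4 and 10 in the sequential combination, with log2 fold changes of -3.01 ± 0.60 and -3.73 ± 0.64 (adjusted p = 0.00683 and 0.00183). All treated libraries lay far below DMSO. The promoter of SPRY4, a Sprouty inhibitor of receptor signalling, had 121, 103 and 130 counts in DMSO, 8, 12 and 7 in osi_DTP, and 4, 10 and 23 in the sequential combination. It fell by 3.48 ± 0.75 in osi_DTP (adjusted p = 0.00947). A distal region of SPRY1, of the same family, fell by 2.81 ± 0.64 (adjusted p = 0.0123) and fell by 3.59 ± 0.68 in the sequential combination (adjusted p = 0.00296), and a distal region of ETV1, a transcription factor downstream of ERK, fell by 2.66 ± 0.60 in osi_DTP (adjusted p = 0.0114). A promoter region of ETV4, of the same factor family, fell in the sequential combination (log2 fold change -4.11 ± 0.77, adjusted p = 0.00269), and a distal region of FGFBP3, another carrier, fell by 3.31 ± 0.70 (adjusted p = 0.00516).

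Of 29 regions of 8 other ligands, 3 rose and 4 fell in osi_DTP (median -0.67), where 6.98% and 7.22% of all annotated regions did. In the sequential combination 3 rose and 7 fell (median -1.05), where 10.7% and 11.1% of all annotated regions did. The falls lay at FGF1, FGF3 and FGF16, and in the sequential combination also at FGF18, and the rises at FGF1 and FGF21. A promoter region of FGF1, which binds all FGF receptors, had 10, 15 and 11 counts in DMSO, 51, 90 and 104 in osi_DTP, and 137, 350 and 40 in the sequential combination. All treated libraries exceeded DMSO, and it rose by 2.95 ± 0.70 (adjusted p = 0.0142) and 4.12 ± 0.72 (adjusted p = 0.00213). FGF1 thus had calls in both directions. A region near FGF21, an endocrine ligand, had 12, 6 and 13 counts in DMSO, 53, 101 and 81 in osi_DTP, and 58, 107 and 23 in the sequential combination, and rose by 3.15 ± 0.65 in osi_DTP (adjusted p = 0.00785). Its neighbour rose by 2.71 ± 0.59 in the sequential combination (adjusted p = 0.00572). A region downstream of FRS3, the paralog of FRS2, rose by 2.51 ± 0.63 and 3.06 ± 0.64 (adjusted p = 0.0179 and 0.00465), and another promoter region of ETV4 rose by 2.68 ± 0.66 and 2.82 ± 0.67 (adjusted p = 0.0177 and 0.00902). Each of these 8 calls in osi_DTP was lost in 1 to 5 of the 9 fits that left out 1 library, always including the fit without DMSO replicate 2.

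Over the 9 libraries, the summed annotated regions of each gene were set beside those of 14645 other genes, on the log2(CPM + 0.5) scale. The genes most like FGFR1 were H2AC16 and MALL (Pearson's r = 0.995 each) and TMEM273 (0.991). Those most like FGF2 were APBB1IP (0.983), MIR5689 (0.981) and LINC02375 (0.978), and those most like FRS2 were C5orf46 and LINC02303 (0.979 each) and ATG5 (0.976). Between the members, FGF2 and FRS2 had a value of 0.871, and the other 5 pairs of the 4 genes had negative values of -0.266 to -0.606. These are descriptions over 9 libraries that share groups and depth. They include replicate 3 of the sequential combination and were not computed without it. In that library FGFR3 summed to 244 counts, beside 76 and 91 in replicates 1 and 2 of its group. FGF2 summed to 190 there, beside 948 and 806. How far the correlations rest on that library was not tested.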

How the data were processed

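H3K27ac ChIP-seq was analysed from 9 libraries of 3 groups with 3 biological replicates each, plus 1 pooled input that entered no test. Per the labels, reads were 75 nt single end, and the submitters' processing notes name BWA 0.7.17, MACS2 2.2.6, featureCounts 2.0.0, ChIPseeker 1.29.1 and the hg38 build, with no role or setting. The authors deposited a table of raw read counts per 502 bp region for all 169637 regions, and an annotated table of 67387 of them with equal counts, the nearest gene, a class and the signed distance to the TSS, a score in bp that is at most 99978 in size. Regions of the first table that the second leaves out are called not annotated here. The authors also deposited 1 peak list per library, with the fold enrichment ratio over input and p and q values as −log10. Promoter classes reach 3 kb from a TSS.

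Members and lists were chosen with earlier results of these data known. Counts were tested with edgeR 4.0.16 (R 4.3.3): filterByExpr with a minimum count of 10, TMM scaling, robust quasi-likelihood fits of all 9 libraries, and Benjamini-Hochberg adjustment over 157919 regions, or over all genes for sums of a gene's regions, with a threshold of 0.05. CPM of single regions are scaled by TMM, while the summed marker levels and the likeness values use library totals alone. The scripts were checked on simulated data. Alternatives were no TMM, a loess offset, DESeq2 1.42.0, limma 3.58.1 (voom with library weights), no filter, annotated regions alone, the libraries of both groups alone, a replicate block, a stricter threshold of 0.01 and each library left out. Regions named are each gene's highest promoter and distal region, the region of lowest p and up to 5 called regions per comparison. Of the pathway, the 4 genes of lowest p per direction were named. For likeness, the 3 nearest genes with at least 5 CPM were named, and those of FGFR3 are not reported here. Regions in or within 1 kb of the RefSeq gene (GRCh38.p14, the same assembly as hg38) that were not assigned to it were added.

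Replicate numbers are shared by the groups, and the labels do not say what a number marks. Deviations from group means correlated between same-numbered DMSO and osi_DTP libraries at 0.361, 0.356 and 0.334, all over 0.1. These libraries were therefore taken as paired in the fit of the DMSO and osi_DTP libraries alone. For DMSO and the sequential combination the correlations were 0.021, 0.551 and 0.347. For osi_DTP and the sequential combination they were 0.299, -0.042 and -0.288, so neither was taken as paired. The main tests compared group means with no term for the replicate number, so their p-values in osi_DTP against DMSO leave this pairing out. The lowest chi-square between replicates was 4.19 per degree of freedom, so all replicates were counted as separate libraries. The peak list deposited for osi_DTP replicate 3 carries another cell line's name than its labels give, while its counts correlated with the other replicates of its group at 0.835 and 0.818. Counting error is that of reads without molecular identifiers.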

Additional observations from a re-analysis of the deposited data

How the results depend on the processing

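With all regions, osi_DTP against DMSO gave 16921 calls, beside 27903 by DESeq2, 50166 by voom, 10795 with annotated regions alone, 38658 with only the libraries of both groups and 3773 at an adjusted p under 0.01. The 3 member calls became 6, 9, 12 and 1 by DESeq2, voom, the libraries of both groups and the stricter threshold, and the 38 pathway calls 63, 92, 79 and 3. For the sequential combination against DMSO, 28518 calls over all regions became 39223 by DESeq2 and 76832 by voom. They became 16525 with annotated regions, 16253 with both groups and 9798 at the stricter threshold. The 4 member calls became 8 by DESeq2 and 12 by voom. The 54 pathway calls became 102, 33 and 20 by voom, both groups and the stricter threshold. Between the sequential combination and osi_DTP, DESeq2 called 86 regions, and voom 5006 and 2 of the pathway, where edgeR called 0. Without TMM no member's distal sum was called in osi_DTP (1 with it), and the split in the sequential combination against DMSO was 9564 higher and 15152 lower, beside 14286 and 14232 with it. That moved the median of all regions from 0.23 to -0.02.

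The replicate block left 0 member promoter sums called in osi_DTP against DMSO (1 without it) and changed no other call on member regions or their sums. The replicate block with only the DMSO and osi_DTP libraries, added after the data were seen, gave 50896 calls over all 146480 regions tested, 13 among members and 97 in the pathway.

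With 1 library left out, calls in osi_DTP against DMSO ranged from 1150 to 43431 over all regions, 0 to 11 for members, 0 to 82 for the pathway, 0 to 1 for promoter sums and 0 to 2 for distal sums. For the sequential combination against DMSO they ranged from 8469 to 57772, 3 to 11, 11 to 80, 1 to 1 and 0 to 2, and against osi_DTP from 0 to 198 over all regions and 0 to 0 elsewhere. Median member regions with a peak were 14.5 to 15.5 in DMSO, 16.5 to 17 in osi_DTP and 13 to 14 in the sequential combination. These medians were likewise not set beside the share of all regions with a peak. The highest region counts against DMSO came without replicate 3 of the sequential combination and the lowest without DMSO replicate 2, for members also without osi_DTP replicate 3. The cause was not tested.

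Of 711 values of 13 named regions under alternatives, 27 changed sign, none of them called. In osi_DTP against DMSO these were FGFR1 38465412 (-0.0307 by voom, -0.0681 to 0.5234 with 1 library left out) and FRS2 69553507 (-0.5277 to 0.0435 with 1 left out). For the sequential combination against DMSO they were FGFR1 38465412 (0.0441 with loess) and FRS2 69553507 (-0.0908 without TMM, -0.26 to 0.43 with 1 left out). Against osi_DTP they were FGFR1 38455676 (0.0496 with loess), FGFR3 1777503 (-0.0690 with the block, -0.33 by voom, -0.94 to 1.07 with 1 left out), FGFR3 1778314 (-1.64 to 0.19 with 1 left out), FGF2 122783771 (-0.0152 with the block, -0.0563 to 0.7095 with 1 left out), FGF2 122784691 (0.0178 with loess, 0.11 by DESeq2, 0.42 by voom, -0.34 to 0.20 with 1 left out) and FRS2 69470298 (-0.18 by voom, -0.80 to 0.89 with 1 left out). None of these differences between the treated groups passed the test.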
